A study of Artemia parthenogenetic lineage with 6 samples.

Results

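In brine shrimp cysts, 182 gene models that were well covered by reads in diapause had fallen to 0.5 or less of their relative level 5 h after its end. All of them are non-evm models, that is, models of the deposited table whose identifiers do not carry the evm.TU prefix of the main annotation. The table holds 16591 models, of which 12851 carry that prefix, 287 join such identifiers and 3453 are non-evm. The 182 were chosen by their read counts scaled to a common library total (CPM, counts per 1e6). Each had at least 16 CPM in all 3 diapause libraries and a diapause mean below 200 CPM. Its mean at 5 h was at most 0.5 of the diapause mean, and every 5 h value lay below every diapause value. The fall itself is therefore a property by which the models were selected, and its size is given here as a description without a test.

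The libraries were made from cysts of Artemia parthenogenetica, labelled wild type, that were collected in Ebinur Lake. The ArD_0h group (n = 3) holds cysts in diapause, labelled as having received no treatment. The ArR_5h group (n = 3) holds cysts 5 h after embryonic diapause termination (EDT), which had been dried and refrigerated to break diapause, rehydrated in ice-cold artificial seawater of 30‰ salinity and kept in such seawater at 28 °C in constant light. Which of these steps the ArD_0h cysts went through is not clear from the labels, so effects of the steps and of time cannot be told apart. The study describes the libraries of a group as biological replicates, and the spread between them measures differences within that cyst collection. A model's level is relative to the total of its library, and in whole cysts fewer cells of a type and less RNA per cell cannot be told apart.

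Embryos of Artemia can stop development as gastrulae enclosed in a shell, and in this state their metabolism is strongly reduced. Dormant embryos carry a store of transcripts made before the arrest. When development resumes, part of such a store is used or degraded while new transcripts are made, so a transcript's relative level depends both on its own fate and on that of all others. The prefix evm.TU is the usual mark of gene models built by a program that combines gene predictions with other evidence. The sources used here do not give how the non-evm models were built. The table pairs none of these identifiers with a gene name, a position or a protein, so no role is given for any model and the cyst label could not be checked against marker genes. Non-evm identifiers consist of a fixed word and a running number, and the number alone is used as the name of a model.

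Library totals were 9992823 to 13505892 counts, and every pair of replicates differed by more than the sampling noise of reads. Replicates were less alike at 5 h (biological coefficient of variation 15.2%) than in diapause (4.37%). Among the ArR_5h libraries, replicates 2 and 3 differed most, which bears on the values below and is described with them.

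The 182 models came from 652 non-evm models that lay in the same level window (at least 16 CPM in each diapause library and a mean below 200 CPM), so that 27.9% of the models that could have been chosen were chosen. Only 10 of the 652 (1.53%) rose at least 2-fold with no overlap between the groups, and 460 did neither. Of the 4223 evm models in this window, counting joined identifiers, 283 (6.70%) met the same rule and 292 (6.91%) rose. The balance of falls and rises in this window was thus even among evm models, whereas among non-evm models falls outnumbered rises by 182 to 10. These shares are counts over models that were measured in the same libraries, and their difference was not tested. The window was set on diapause values alone, so models that rose from a low diapause level could not enter it. How far this affected the counts of either kind was not tested. Without the window, 492 of the 2418 non-evm models tested (20.3%) were called down-regulated in the fit described below. That share includes the 182 members. With the members left out, 13.7% of the tested non-evm models numbered next to a member were called up-regulated and 10.5% down-regulated. Among the other non-members 13.5% were called up-regulated and 14.2% down-regulated. Within the window the fall was not limited to the chosen models: 494 of the 652 (75.8%) had a lower mean at 5 h, against 2213 of the 4223 evm models (52.4%). All ArR_5h values lay below all ArD_0h values in 411 (63.0%) and 1597 (37.8%) models, respectively. The median log2 ratio of ArR_5h to ArD_0h means was −0.52 for the 652 but −0.19 for all non-evm models tested. The second group includes models of the window, so the fall was by median smaller once models outside the window were counted too. The condition that the groups must not overlap removed 0 models, since every non-evm model in the window that met the limit on the means had no overlap.

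The median ratio of ArR_5h to ArD_0h mean CPM was −1.50 on the log2 scale for the 182 models and −0.25 for the 470 other non-evm models in the window. It was −0.03 for the evm models in the window and −1.30 for the 283 of these that met the rule. Over all 11959 models with enough reads to be tested, the median was 0.02. The 470 other models were chosen by exclusion of the larger falls, so their median is a description as well. Even so, their values showed that non-evm models of the window that missed the rule were, by median, lower at 5 h too.

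**Figure D1:**
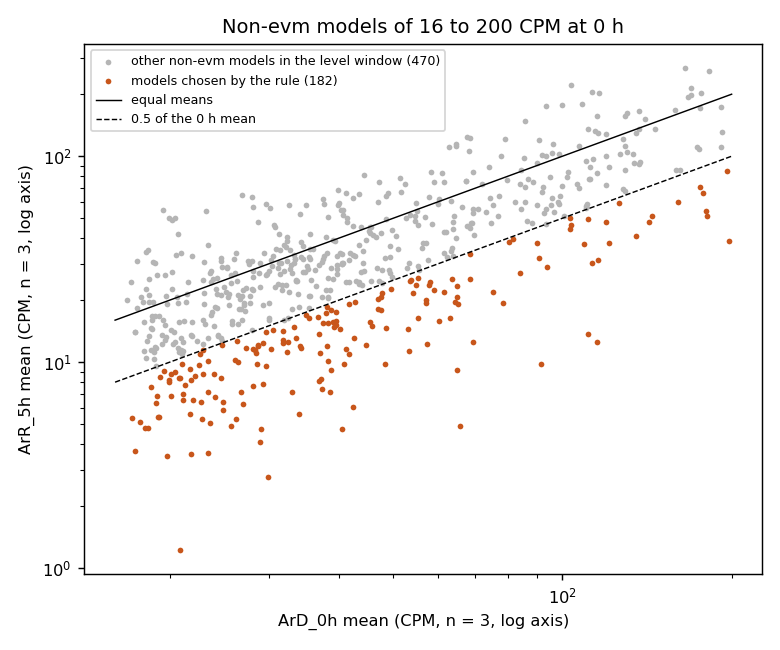
Mean CPM at 5 h (y axis, log scale) against mean CPM in diapause (x axis, log scale) for the 652 non-evm models in the level window, n = 3 libraries per group. Orange points are the 182 models chosen by the rule, grey points the 470 others, the solid line marks equal means and the dashed line 0.5 of the diapause mean. The orange points lie below the dashed line by construction, at all diapause levels, and most grey points lie between the lines.

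Models on both sides of each limit were close in value. At the lower level limit, model 2808 was inside with a lowest diapause value of 16.1 CPM, and model 87 was outside with 15.8 CPM. At the upper limit, model 3217 was inside with a diapause mean of 198 CPM, and model 2661 was outside with 211 CPM although its 5 h mean was 0.422 of that. At the limit on the fall, model 207 had a ratio of 0.498 and model 3229 one of 0.501. The narrowest gap between the groups was that of model 1613, whose lowest diapause value was 1.38-fold its highest 5 h value. These limits are cuts through a continuous range and do not separate classes of models.

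Within the set, diapause means ran from 17.1 to 198 CPM with a median of 37.7, and 5 h means from 1.23 to 84.5 CPM with a median of 12.2. The 5 h mean was 5.88% to 49.8% of the diapause mean, with a median of 35.3% and quartiles of 27.0% and 42.0%. In folds, 63 models were 2 to under 2.5-fold lower, 41 were 2.5 to under 3-fold lower and 43 were 3 to under 4-fold lower. A further 15 were 4 to under 5-fold lower, 13 were 5 to under 8-fold lower and 7 were at least 8-fold lower. Most of the set thus fell moderately and a short tail fell steeply. Read numbers were ample in most cases, at 169 to 2583 counts per model and library in diapause and 12 to 1011 at 5 h.

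In edgeR's quasi-likelihood fit across all 11959 models, the log2 fold changes of the set had a median of −1.54 and standard errors of 0.077 to 0.281. All 182 were called down-regulated (Benjamini-Hochberg adjusted p of 0.05 or less, with a log2 fold change beyond −1), against a background of 10.7% of all models tested and 20.3% of the 2418 non-evm models tested. DESeq2 called the same 182, against a background of 10.3%. When the fold limit was built into the test (glmTreat), 123 were called, against a background of 4.37%. Because the rule used the same contrast, these counts repeat the choice of the models and are not read further. With ArR_5h replicate 3 left out, 166 of the 182 were called down-regulated, and 1236 over all models, against 1275 with all libraries.

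Model 882 showed the largest fall. Its values were 17.9, 23.5 and 21.2 CPM in diapause and 1.42, 1.20 and 1.06 CPM at 5 h, or 17.0-fold lower (log2 fold change −4.11 ± 0.20, SE). These 5 h values stood for 16, 12 and 13 counts over a model of 14447 bases, so that per length it was also one of the least abundant, at 1.43 FPKM (counts per kilobase of model and 1e6 counts) in diapause. Model 886 was nearly as steep, with 62.0, 67.9 and 67.0 CPM in diapause and 3.81, 5.60 and 5.21 CPM at 5 h, which is 13.5-fold lower. It is only 556 bases long and was abundant per length in diapause, at 117 FPKM, falling to 8.66 FPKM. The lowest diapause value was 12.6 times the highest 5 h value in model 882 and 11.1 times in model 886.

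Model 3255 had 24.2, 29.9 and 35.8 CPM in diapause and 2.13, 2.70 and 3.50 CPM at 5 h, which is 10.8-fold lower. Model 885 had 80.6, 95.8 and 98.8 CPM in diapause and 10.01, 7.71 and 11.6 CPM at 5 h, which is 9.38-fold lower. Model 1097 had 113, 98.0 and 134 CPM in diapause and 12.2, 11.5 and 13.8 CPM at 5 h, which is 9.19-fold lower. The replicates of a group kept within a narrow band here compared with the distance between the groups. Model 743, the shortest of the set at 500 bases, had 32.5, 34.9 and 54.2 CPM in diapause and 3.28, 4.40 and 6.59 CPM at 5 h, or 8.52-fold lower. Replicate 3 was its highest library in both groups, and its diapause spread (coefficient of variation 29.3%) was the widest in the set. Model 2191 had 115, 113 and 105 CPM in diapause and 14.0, 16.8 and 10.4 CPM at 5 h, which is 8.07-fold lower.

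The other models among the 10 largest falls were about 7-fold lower. Model 2564 went from 69.2, 62.2 and 63.6 CPM to 9.75, 8.61 and 9.12 CPM. Model 1553 went from 34.1, 24.1 and 28.7 CPM to 3.46, 4.80 and 4.07 CPM. Model 77 went from 41.6, 45.8 and 39.8 CPM to 5.67, 8.51 and 4.07 CPM. Their log2 fold changes were all −2.85, with standard errors of 0.11, 0.18 and 0.19, so the fit did not rank them.

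**Figure D2:**
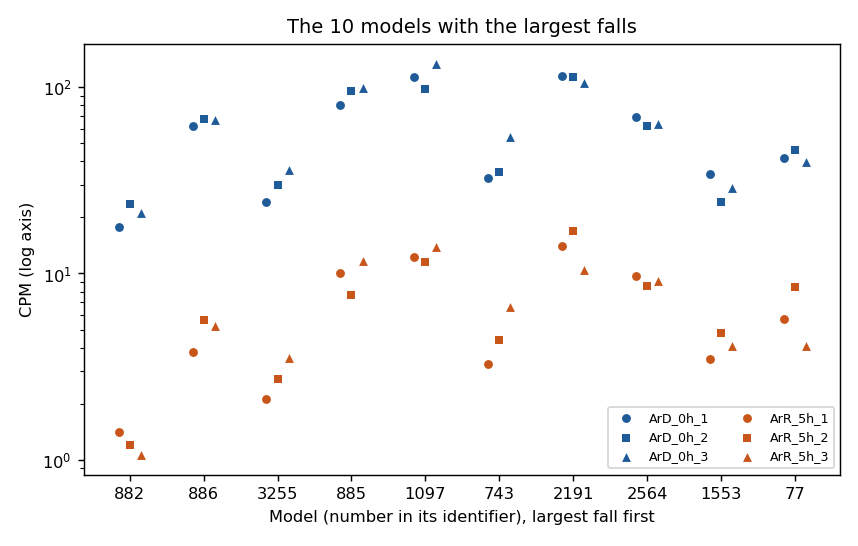
CPM (log axis) of the 10 models with the largest falls in each of the 6 libraries, blue for ArD_0h and orange for ArR_5h, with a marker shape for each replicate number. For each model all 3 orange points lie below all 3 blue points, from model 882 (17.0-fold lower) to model 77 (6.97-fold lower).

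The 5 models with the most reads in diapause were 2.32-fold to 5.09-fold lower at 5 h, and none of them was among the 10 largest falls. Model 3217 had 206, 201 and 188 CPM in diapause and 39.5, 45.5 and 31.8 CPM at 5 h, a 5.09-fold lower mean (log2 fold change −2.38 ± 0.10, SE). Model 1924 began at much the same level, with 203, 195 and 191 CPM, but kept 89.6, 92.2 and 71.7 CPM at 5 h, a 2.32-fold lower mean (−1.25 ± 0.08). Model 490 went from 187, 178 and 177 CPM to 46.2, 72.7 and 35.6 CPM. Model 2832 went from 176, 176 and 189 CPM to 55.0, 66.6 and 40.2 CPM. Model 99 went from 188, 173 and 173 CPM to 64.7, 95.7 and 39.1 CPM. In these last models the 5 h libraries differed by up to 2.45-fold among themselves, with replicate 2 highest and replicate 3 lowest each time.

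Per length, another group led. Model 1434 (545 bases) had the highest diapause mean, 165 FPKM, and 57.3 FPKM at 5 h. Model 2029 (739 bases) had 147 and 50.0 FPKM, and model 3260 (849 bases) had 135 and 36.3 FPKM. All are under 1000 bases long, as were models 2991 (135 and 62.5 FPKM) and 1624 (121 and 53.2 FPKM). In reads, model 3260 went from 108, 116 and 123 CPM to 30.1, 33.4 and 30.2 CPM, with 5 h libraries that differed little. At the other end of the length range, model 660 (12087 bases) went from 56.1, 62.9 and 58.1 CPM to 20.5, 26.4 and 20.2 CPM, which is only 4.84 FPKM in diapause.

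Summed over the set, these transcripts took 0.935%, 0.914% and 0.913% of all counts in the ArD_0h libraries and 0.314%, 0.370% and 0.246% in the ArR_5h libraries. The means were 0.920% ± 0.0124 and 0.310% ± 0.0620 (SD, n = 3 each), a 2.97-fold lower share. No single model carried the sum, since the 10 highest in diapause made up 18.4% of it. All 3453 non-evm models together took 10.6% ± 0.154 of the counts in diapause and 8.93% ± 0.186 at 5 h, a difference of −1.67 percentage points. The 182 models accounted for −0.610 points, or 36.5% of that difference, and the remaining 3271 non-evm models for −1.06 points. The 182 were chosen for their fall in these same values, and the difference is a net of falls and rises. The percentage is therefore a description and not a share of all falls.

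The length of each model, which the rule did not use, was recovered from the ratio of count to FPKM. The 182 models were 500 to 18521 bases long, with a median of 3433.5 and quartiles of 1971.75 and 5196. The 470 other non-evm models in the window had a median of 2924.5 bases, the evm models in the window 1527, and the 283 evm models that met the rule 1650. Non-evm models with reads had a median of 1162 bases and evm models 1155, so the kinds differed in median length within the level window and hardly over the whole table. All non-evm models in the window together had a median of 3110.5 bases. Long models gather more reads at a given abundance. Whether the limit on CPM accounts for the difference between the kinds was not tested.

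Per length, the set ranked differently depending on the models it was set against. Its median diapause level was 11.9 FPKM, against 14.6 FPKM for the other non-evm models and 33.8 FPKM for the evm models in the window. At 5 h the medians were 3.69, 12.6 and 34.6 FPKM. The set spanned 1.43 to 165 FPKM in diapause, and across its models length and FPKM were inversely ranked (Spearman rho −0.71, n = 182), as follows from the narrow range of CPM allowed. Over all 11959 models tested the diapause median was 10.9 FPKM, and over the non-evm models tested it was 3.59 FPKM. By median the set thus lay below the other models of its window per length, and above the non-evm models as a whole.

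**Figure D3:**
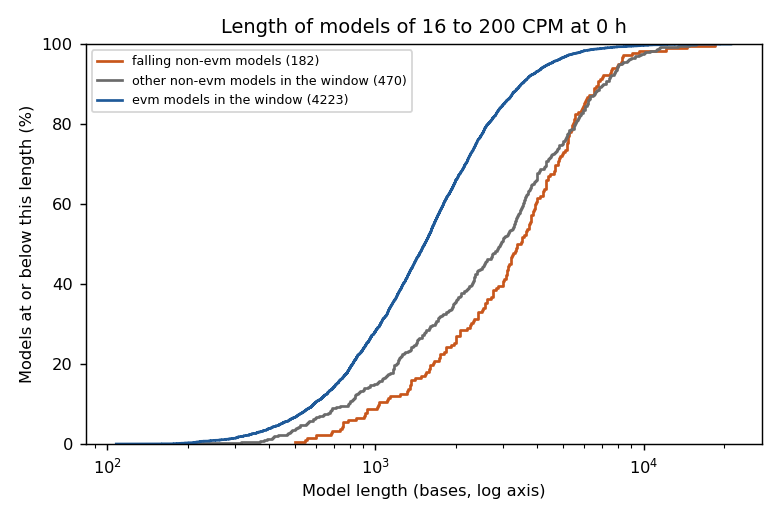
Cumulative share of models (y axis, %) at or below a given length (x axis, bases, log scale) for the 182 falling non-evm models, the 470 other non-evm models and the 4223 evm models of the same level window. The curves of both non-evm groups lie to the right of the evm curve, with medians of 3433.5, 2924.5 and 1527 bases.

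Neither length nor level ordered the falls within the set. Over the 182 models, Spearman's rho was 0.01 between length and the log2 ratio of the groups, and 0.004 between diapause CPM and that ratio. The models share libraries, and the rule limited both the ratio and the diapause level, so these are descriptions over a narrowed range. Across the window, the share of non-evm models that met the rule was 29.2% (74 of 253) at 16 to 32 CPM and 29.1% (68 of 234) at 32 to 64 CPM. It was 24.4% (30 of 123) at 64 to 128 CPM and 23.8% (10 of 42) from 128 CPM to the upper limit. Among evm models it was 6.01% to 7.89% in these classes. The higher share of falling models among non-evm models was thus present in every class of diapause level.

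By length, the share of non-evm models that met the rule was 18.4% (16 of 87) below 1000 bases and 24.6% (32 of 130) from 1000 to 2000 bases. It was 29.95% (62 of 207) from 2000 to 4000 bases, 32.3% (62 of 192) from 4000 to 8000 bases and 27.8% (10 of 36) for longer models. Among evm models the share was 5.46%, 6.63%, 7.19%, 9.89% and 13.8% in the same classes, the last resting on 4 of 29 models. The non-evm share was highest from 4000 to 8000 bases and lower again in the longest class, while the evm share was highest in the longest class. In each length class the non-evm share was the larger.

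**Figure D4:**
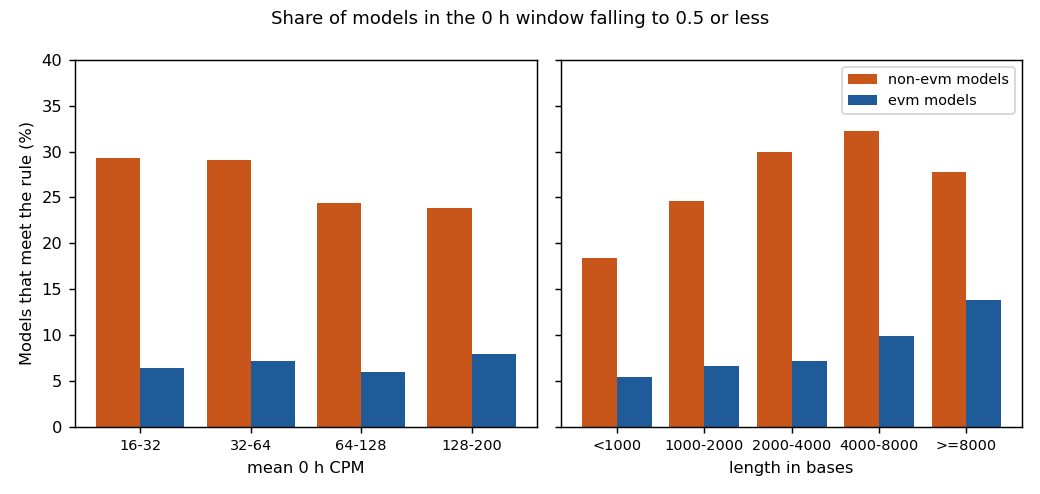
Share of the models in the level window that met the rule (bars from 0, %) by mean diapause CPM (left) and by model length in bases (right), orange for non-evm and blue for evm models. The orange bars (18.4% to 32.3%) exceed the blue bars (5.46% to 13.8%) in every class.

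The ArR_5h libraries were not alike in these models. The median model was at 35.7% of its diapause mean in replicate 1, at 41.6% in replicate 2 and at 27.7% in replicate 3, whereas the 3 diapause libraries stood at 102%, 99.4% and 98.8%. Replicate 3 was the lowest 5 h library in 150 of the 182 models (82.4%) and replicate 2 the highest in 141 (77.5%). Replicate 2 exceeded replicate 3 by a median of 1.47-fold. All 182 models were at or below 0.5 of the diapause mean in replicate 3, but 166 were in replicate 1 and 141 in replicate 2, and 135 were in all 3.

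**Figure D5:**
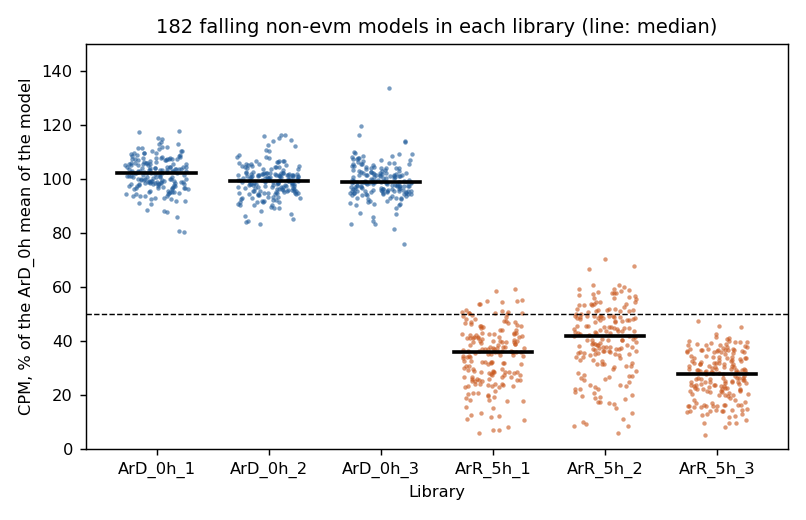
CPM of each of the 182 models in each library as a percentage of the model's own ArD_0h mean, with a line at the median of each library and a dashed line at 50%. Medians are 102%, 99.4% and 98.8% in diapause and 35.7%, 41.6% and 27.7% at 5 h, with replicate 3 of ArR_5h lowest and replicate 2 highest.

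The same order of libraries was seen outside the set. Replicate 3 was the lowest 5 h library in 69.8% of the other non-evm models and 62.2% of the evm models in the window, in 86.6% of the 283 evm models that met the rule and in 69.2% of the 302 models of both kinds that rose. When CPM was scaled by TMM factors, which correct for differences in library composition, these shares were 56.4%, 45.4%, 81.3% and 55.3%, and the share of the 182 models was 74.2% (135). Falling models of both kinds thus placed replicate 3 lowest more often than the other groups did, under either scaling, although the rule itself read these libraries. Whether the ArR_5h cysts of the 3 replicates had developed equally far was not tested, as the labels give no independent measure of it.

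Spread between replicates was wider at 5 h in all groups of models. In the 182 models the median coefficient of variation was 5.71% in diapause and 21.4% at 5 h, against 13.1% at 5 h for the other non-evm models, 9.61% for the evm models in the window and 24.7% for the evm models that met the rule. Model 1218 varied most, with 46.3, 48.1 and 46.6 CPM in diapause and 18.5, 31.9 and 10.5 CPM at 5 h, a coefficient of variation of 53.3%. Model 2307 followed with 21.6, 22.1 and 26.7 CPM and then 8.51, 15.6 and 6.19 CPM. In these models replicate 2 remained well above the others, although still below every diapause value.

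Other models fell by like amounts in every library. Model 2546 had 57.5, 52.3 and 62.1 CPM in diapause and 19.6, 19.8 and 20.8 CPM at 5 h, a coefficient of variation of 3.34% at 5 h. Model 262 had 42.4, 34.0 and 34.4 CPM in diapause and 13.2, 14.2 and 13.7 CPM at 5 h (3.69%). Both were near the median fall of the set, so the order of the 5 h libraries is not shared by all of its models.

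The steepest falls also departed from that order. Among the 7 models that were at least 8-fold lower (743, 882, 885, 886, 1097, 2191 and 3255), replicate 3 was the lowest 5 h library in 2 and the highest in 4. Those 4 models (743, 885, 1097 and 3255) were highest in replicate 3 in diapause as well. Among the 175 models with smaller falls, replicate 3 was lowest in 148 (84.6%) and highest in 7, and 4 models were highest in replicate 3 at both times. This split by the size of the fall was chosen after the values were seen and is given without a test. The median diapause coefficient of variation of the 7 models was 13.5%, against 5.64% for the 175.

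To obtain values that the choice had not used, the rule was applied with each ArR_5h library left out and the chosen models were read in that library. Without replicate 1, 192 models were chosen and all 192 were below every diapause value in replicate 1, with 165 (85.9%) at or below 0.5 of the diapause mean and a median of 36.0%. Without replicate 3, 159 were chosen, all 159 were below every diapause value in it, and 155 (97.5%) reached 0.5 or less, with a median of 25.9%. Without replicate 2, 221 were chosen, of which 219 were below every diapause value in it and 141 (63.8%) reached 0.5 or less. Their median was 44.9% in replicate 2, against 34.4% in the libraries used. The direction of the fall thus appeared in the unused library in nearly every model, while its size depended on which library was read. The diapause libraries were part of both steps, so only the 5 h values were new. The unused library is a replicate of the same condition from the same cyst collection, so its values describe agreement between replicates and do not test the set.

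For evm models chosen in the same manner, the share at or below 0.5 in the unused library was 80.5% (247 of 307) in replicate 1, 39.0% (159 of 408) in replicate 2 and 94.9% (205 of 216) in replicate 3. The non-evm share was higher in each library, and in both kinds replicate 2 gave the lowest share. In the libraries used for the choice, non-evm models stood at medians of 36.5%, 34.4% and 36.8% of the diapause mean. The evm models stood at 41.1%, 40.2% and 42.0%, so the higher non-evm share is not independent of the choice. Direction held alike in evm models: 307 of 307, 406 of 408 and 216 of 216 were below every diapause value in the unused library.

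Running numbers of non-evm models go from 1 to 3453. Of the models in the window, 25.7% (45 of 175) were in the set up to number 1000, 31.0% (52 of 168) from there to 2000 and 27.5% (85 of 309) above. The set was thus spread over the whole range of numbers. The sources used here do not give whether numbers follow the order of the models along the genome, and no position was used.

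In 15 instances models with consecutive numbers were both in the set, 14 as pairs and 1 as a run of 3, which together held 31 of the 182 models (17.0%). Of the 470 other models in the window, 53 (11.3%) had a consecutive number in the set. At a distance of up to 5 numbers the shares were 44.5% and 43.8%. Members of a run differed in their log2 ratio by 0.034 to 1.495, with a median of 0.61. The run of 3 was made up of models 1922, 1923 and 1924. Model 1922 went from 68.4, 71.5 and 65.8 CPM to 34.7, 39.6 and 26.4 CPM and was 2.04-fold lower. Model 1923 went from 42.3, 40.7 and 40.6 CPM to 11.7, 14.6 and 8.55 CPM and was 3.54-fold lower. Model 1924, described above, was 2.32-fold lower, so the fall of the run was not uniform.

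Non-evm models numbered next to a member, but not members themselves, numbered 324, of which 219 had enough reads to be tested. Their median log2 fold change was −0.25, with 23 (10.5%) called down-regulated and 30 (13.7%) called up-regulated. Among the 2017 other non-evm models tested, the median was −0.11, with 14.2% called down-regulated and 13.5% up-regulated. Members are left out on both sides of this comparison, which lowers the counts of falls.

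Numbers 880 to 889 were looked at after their values were seen, because 3 of the 7 steepest falls (882, 885 and 886) lie among them. Model 880, of 763 bases, missed the lower level limit but went from 9.36, 10.7 and 12.0 CPM to 0.532, 0.4003 and 0.896 CPM (log2 fold change −4.10 ± 0.29, SE). Model 884, of 659 bases, went from 3.69, 5.13 and 5.26 CPM to 0.354, 0.4003 and 0.244 CPM (−3.82 ± 0.34), the last values resting on 3 or 4 counts each. Together with the members, 5 models of this stretch stood at 5.71% to 10.7% of their diapause means at 5 h.

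The other numbers of this stretch did not share that fall. Model 889 had a smaller one, from 2.55, 2.86 and 2.37 CPM to 1.06, 0.801 and 1.14 CPM (−1.37 ± 0.29). It stood at 38.6% of its diapause mean and was called down-regulated. Models 887 and 888 stood at 82.1% and 163% of their diapause means and were not called. Model 881 had at most 1 count in any library and model 883 had 0 counts in every library. The library kit leaves strand unmarked, so where models overlap, reads of one can be counted for another, and whether models 880 to 886 overlap is not known from the table.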

How the data were processed

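RNA of 6 cyst libraries was sequenced as 150 bp paired-end reads with a kit that leaves strand unmarked, so reads of overlapping or antisense models cannot be told apart. The authors filtered the reads, aligned them to the Artemia franciscana genome, which is another species, and counted them per gene model. The submitters' processing notes name HISAT2 2.0.5 and featureCounts 1.5.0-p3. The sources used here give neither the annotation nor the strand setting. For each model and library, the deposited table holds an unnormalised count and an FPKM that the authors computed from count and model length. Column names matched the labels, with 0 columns left over, and replicates were not pooled.

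The rule was applied to CPM, each count divided by its library total and multiplied by 1e6. The library divisors behind the deposited FPKM were solved from counts and FPKM together and came to 94.8% to 107% of the totals. The lengths they gave were whole within 0.01 bases for all 14844 models with reads. Deposited counts were fitted with edgeR 4.0.16 in R 4.3.3 (quasi-likelihood, TMM factors, filterByExpr with minimum count 10 and minimum total 15) and a single term for ArR_5h against ArD_0h, and p-values were adjusted over all 11959 models tested. The calls follow the limits of the study's methods. A standard error is the log2 fold change divided by the square root of F. One dispersion trend serves both groups, so the wider spread at 5 h is shared with ArD_0h.

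The scripts were tested on simulated data. Models named are the 10 lowest ratios, the 5 highest in diapause CPM and the 5 highest in diapause FPKM, the 3 longest and 3 shortest, the longest run of consecutive numbers, the 2 most and 2 least variable at 5 h, and those beside each limit. Members and lists were chosen with earlier results of these data known. Alternatives were DESeq2 1.42.0, limma-voom (limma 3.58.1), glmTreat, RLE factors, library totals, no filter, a filter of 1 CPM in 3 libraries, omission of the 10 most abundant models, a replicate block, FPKM with a pseudocount of 1 or 0.1, other limits in the rule and leaving out each library. The unused-library values, the split by the size of the fall and the look at numbers 880 to 889 were added after seeing the data. No sequence or gene name is given, since no reference was used here. Figures were drawn with matplotlib 3.10.9.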

Additional observations from a re-analysis of the deposited data

How the results depend on the processing

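None of the 182 models was called up-regulated in any fit. All were called down-regulated in all fits except glmTreat (123) and those that left out a library, where 166 to 182 were called. The lowest count, 166, was without ArR_5h replicate 3, where 1236 models were called down-regulated over all models, against 1275 in the main fit. The rule used the same contrast and libraries, so these calls repeat the choice of the models and do not test the set. Their median log2 fold change of −1.54 ran from −1.55 to −1.51 over other scalings, filters and tools, from −1.67 to −1.44 when a library was left out, and was −1.49 and −1.26 on log2(FPKM + 0.1) and log2(FPKM + 1). Over all models 2984 were called, 2933 to 3251 under the other settings and 2980 to 3194 with a library left out, but 1359 with glmTreat. The rule itself was more sensitive. It found 191 models with TMM-scaled CPM, 251 at a limit of 8 CPM, 102 at a limit of 32 CPM, 204 with no upper limit, 119 at a ratio of at most 0.4, and 159 to 221 with a library left out. Among evm models it found 283, with 131 at a ratio of at most 0.4 and 216 to 408 with a library left out. The set's share of the counts ran from 0.913% to 0.924% in diapause and from 0.280% to 0.342% at 5 h when a library was left out. Members with another member's number up to 5 away numbered 81, against 31 at a distance of 1. For the 30 named models, the alternatives were RLE factors, library totals, DESeq2, limma-voom, a replicate block and leaving out each library, without glmTreat. Of these 330 alternative results, 325 kept their call and 0 reversed. These models are members chosen for their fall, so kept calls follow largely from the choice. The 5 that lost it were model 207 without ArR_5h replicate 2 (−0.99996) or replicate 3 (−0.94), and models 1218 (−0.98), 1613 (−0.90) and 1922 (−0.95) without replicate 3.

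Samples with the same replicate number did not deviate together (correlations of 0.01, 0.02 and 0.06), so the numbers were not taken to pair the samples. With a replicate block, 3006 models were called overall and all 182 of the set, with a median of −1.55. The 5 h values of the set rested on 12 to 1011 counts per model and library.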
